A study of Homo sapiens with 6 samples.

Results

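A set of 10 genes that mark the epithelial and mesenchymal states of breast cancer cells were followed after knockdown of the receptor Ror1: the intermediate filament gene VIM, the cadherins CDH1, CDH2 and CDH11, the transcription factors ZEB1, ZEB2, SNAI1, SNAI2 and TWIST1, and the epithelial surface gene EPCAM. They were taken by gene symbol, all 10 were present among the 57445 genes of the table, and the rule used no measured value. The data were 6 RNA-Seq libraries of the MDA-MB231 line, a triple-negative and highly invasive human breast cancer line. In 3 libraries (shCTL) the cells carried the pGIPZ control vector, described in the labels as an empty vector and in the methods as a non-silencing shRNA, and in the other 3 libraries (shRor1) the pGIPZ vector with an shRNA against ROR1. All cells were transduced with lentivirus and selected with puromycin, so both groups shared vector and selection. Only the column header of the controls holds the word DMSO, which no label explains, so equal handling of the groups is not established. No source used here said whether a group came from 1 clone or from a mixed population, or whether its libraries came from separate cultures. The p-values therefore measure only the spread between these libraries, which may be technical.

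Epithelial-to-mesenchymal transition (EMT) is the programme by which epithelial cells loosen their junctions and gain motility. The zinc finger repressors of the ZEB and SNAI families and the bHLH factor TWIST1 shut off the epithelial cadherin gene CDH1 and other junction genes, and vimentin filaments and the mesenchymal cadherins CDH2 and CDH11 mark cells that have passed through it. ZEB1 and ZEB2 and the microRNAs of the miR-200 family are known to repress each other. Ror1 is a receptor of non-canonical Wnt signaling that has been tied to invasiveness, and the comparison of shCTL with shRor1 asked which transcripts respond to its loss.

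The miR-200 family is shown by its mature sequences because it links the microRNAs to 2 of the 10 genes. The 5 family members fall into 2 groups by seed, bases 2 to 8 counted from the 5′ end, which is given in capitals (RefSeq, GRCh38.p14).
hsa-miR-141-3p: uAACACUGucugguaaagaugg
hsa-miR-200a-3p: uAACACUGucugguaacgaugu
hsa-miR-200b-3p: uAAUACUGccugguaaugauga
hsa-miR-200c-3p: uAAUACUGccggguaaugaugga
hsa-miR-429: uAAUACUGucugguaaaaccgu
The first pair shares one seed and the other three share the second.

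The 3′ UTRs of the canonical transcripts were searched on the sense strand for the 7 letters complementary to each seed, CAGTGTT for the first pair and CAGTATT for the rest. ZEB1 held 6 CAGTATT and 3 CAGTGTT matches, 9 in all, in a UTR of 2540 bases. ZEB2 likewise held 9, 5 CAGTATT and 4 CAGTGTT, in 5370 bases. One match of each kind is shown per gene, as the 15 bases before the match and the match itself in capitals (GRCh37).
ZEB1, chr10:31816561-31816567, plus strand: attgttttatcttatCAGTATT
ZEB1, chr10:31816974-31816980, plus strand: caaaatcatcagaatCAGTGTT
ZEB2, chr2:145146620-145146626, minus strand: cgcactaccatacatCAGTATT
ZEB2, chr2:145146804-145146810, minus strand: tgcaaaaattttgtaCAGTGTT
The coordinates are those of the capital letters. Of all 19406 canonical 3′ UTRs, 28.2% held either motif. Among the 1210 UTRs within 10% of the length of that of ZEB1, 45.6% held 1 or more matches and 0.0826% held 9 or more, ZEB1 included. For ZEB2 the corresponding shares were 71.0% and 0.177% of 566 UTRs. CDH11 and SNAI2 held 1 match each, and VIM, CDH1, CDH2, SNAI1, TWIST1 and EPCAM held 0. A match describes the letters of the UTR and not a measured binding site.

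The genes lie on 7 chromosomes of GRCh37. VIM occupies chr10:17270240-17279592 and ZEB1 chr10:31607424-31818742, both on the plus strand. ZEB2 lies at chr2:145121931-145278624 on the minus strand and EPCAM at chr2:47572297-47614740 on the plus strand. CDH1 lies at chr16:68771195-68869440 on the plus strand and CDH11 at chr16:64977656-65160015 on the minus strand. CDH2 is found at chr18:25512843-25757910 on the minus strand and SNAI1 at chr20:48599517-48605423 on the plus strand. Values are sums over each whole gene, so neither isoforms nor exons can be read from them.

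Expression was given as TPM (length-corrected transcript abundance), a unit that corrects for the length of a gene and the size of a library, so that levels can be compared between genes. The table keeps no read depth per column, and no counting interval was worked out. The 16554 genes that reached 1 TPM in 3 or more libraries were tested with limma on log2(TPM + 1) with Benjamini-Hochberg adjustment over all of them, and fold changes on that scale understate the change of low genes. Libraries are numbered by column order within a group, and no column header says whether equal numbers belong together. The fit was unpaired, so any variation shared by equal numbers counted as spread between libraries. Pairs of libraries correlated at r = 0.9836 to 0.9934 across tested genes (15 pairs). The third library of each group stood apart in some genes, with the highest FN1, S100A4, JUP and CLDN7 of its group. No gene of the table passed an adjusted p of 0.05 (0.0% of those tested), with 0.369 as the lowest adjusted p. By an unadjusted p below 0.05, 2.31% of tested genes were higher and 0.544% lower in shRor1. Without overlap between the 3 and 3 values, 6.48% were higher and 1.3% lower.

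The target of the shRNA itself, ROR1, a receptor tyrosine kinase-like protein, stood at 15.42, 13.49 and 20.56 TPM in shCTL against 9.34, 11.93 and 14.85 TPM in shRor1. Of the 3 shRor1 libraries, 2 lay below all controls and the third, at 14.85 TPM, lay above one control, so the groups overlapped. The log2 fold change of ROR1 was -0.43 (SE 0.197, n = 3 per group, 95% interval -0.88 to 0.03), with a limma unadjusted p of 0.0649 and adjusted p of 0.984. The paper examined the knockdown at the protein level by western blot, which these RNA values do not measure. RNA from fewer cells with knockdown and RNA from cells with less of it cannot be told apart in bulk samples.

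Of the 10 EMT genes, 7 passed the filter and were tested, and none of these differed between shRor1 and shCTL beyond the spread between libraries by limma. Of the 7, 0 passed an adjusted or an unadjusted p of 0.05. Fold changes were positive for 5 and negative for 2, and the share of positive ones over all tested genes was not worked out. The median log2 fold change of the 7 was 0.08 beside 0.054 over all tested genes. With median ratio scaling the median over all tested genes was -0.017. The largest tested difference belonged to CDH1, with a mean of 1.41 TPM in shRor1 against 1.01 TPM in shCTL. CDH1 and ZEB2 were the 2 tested genes whose groups did not overlap, both higher in shRor1 (6.48% of all tested genes), and 0 were lower without overlap (1.3% of all). CDH2 and CDH11 remained under the filter, and TWIST1 was listed at 0 in all libraries.

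**Figure D1:**
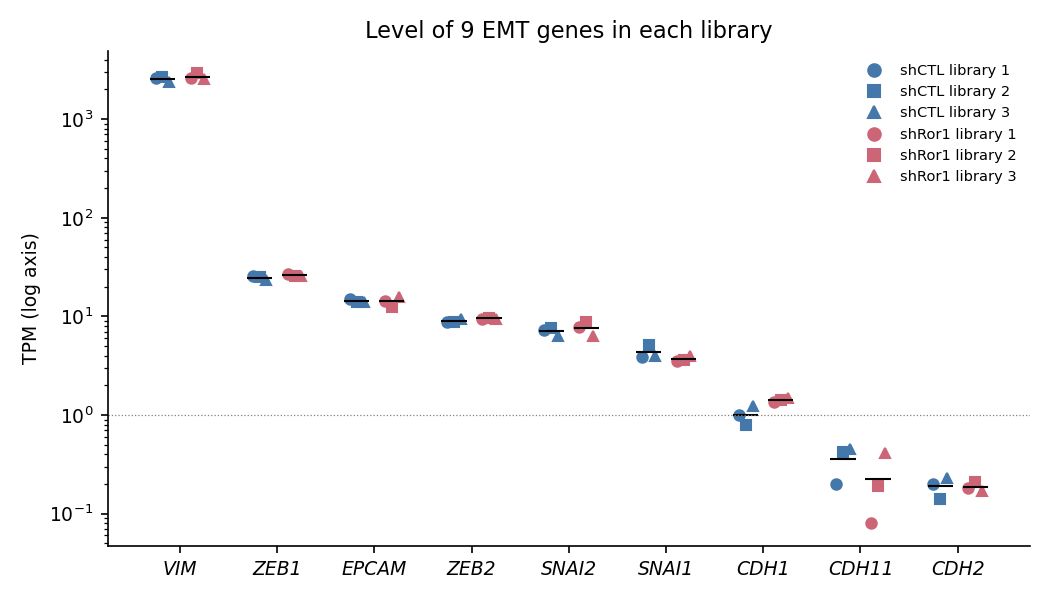
TPM of 9 genes in each of the 6 libraries on a log axis, with shCTL in blue, shRor1 in red, 1 point per library and black bars at the group means (TWIST1, listed at 0, cannot be drawn, and the dotted line marks 1 TPM). VIM stands far above ZEB1 (ratio of means 104 in shCTL and 103 in shRor1), and the order of the genes is the same in both groups.

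Mean levels over the 6 libraries ran from 0.188 TPM (CDH2) to 2629 TPM (VIM), TWIST1 aside, and kept one order in both groups. From the highest mean to the lowest, this was VIM, ZEB1, EPCAM, ZEB2, SNAI2, SNAI1, CDH1, CDH11, CDH2 and TWIST1. Every neighbour in that order was separated by non-overlapping values within its group, except CDH11 and CDH2, whose ranges overlapped in shCTL and in shRor1. The ratio of VIM to ZEB1 means was 104 in shCTL and 103 in shRor1, whereas that of ZEB2 to SNAI2, the closest pair that did not overlap, was 1.28 in shCTL and 1.24 in shRor1.

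VIM encodes vimentin, the main intermediate filament protein of mesenchymal cells. It was measured at 2608.54, 2687.84 and 2398.72 TPM in the shCTL libraries and at 2629.48, 2919.77 and 2527.17 TPM in shRor1. The groups overlapped, with the third library the lowest in each. VIM ranked 33 of 57445 genes by mean level and took 0.24% to 0.292% of the TPM of a library. The mean was 2565 ± 149 TPM in shCTL and 2692 ± 204 TPM in shRor1 (SD, n = 3 each), and the log2 fold change was 0.07 (SE 0.089, 95% interval -0.14 to 0.28, limma adjusted p = 0.984). Scaling by median ratios turned this sign, to -0.012.

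ZEB1, a zinc finger and homeodomain repressor of CDH1, was the highest of the 5 transcription factors. Its levels were 25.78, 25.27 and 23.11 TPM in shCTL and 26.81, 25.63 and 25.91 TPM in shRor1. In 2 of 3 shRor1 libraries ZEB1 lay above all controls, and the remaining one was within their range. The log2 fold change was 0.08 (SE 0.081, 95% interval -0.11 to 0.27, limma adjusted p = 0.984) and fell to 0.0 when TPM were scaled by median ratios.

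ZEB2, its paralog with the same kind of zinc finger clusters, was measured at 8.78, 8.87 and 9.38 TPM in the shCTL libraries and at 9.51, 9.71 and 9.43 TPM in shRor1. All 3 shRor1 values were above all 3 controls, the nearest by 9.43 against 9.38 TPM. The log2 fold change of ZEB2 was 0.08 (SE 0.093, 95% interval -0.14 to 0.29, limma adjusted p = 0.984), and it was -0.003 after quantile normalization. The exact two-sided permutation test gave p = 0.1, the smallest value that 3 against 3 libraries can give.

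SNAI1, or Snail, a short-lived repressor that acts early in EMT, had levels of 3.89, 5.13 and 3.96 TPM in shCTL and 3.51, 3.62 and 3.97 TPM in shRor1. In 2 of 3 shRor1 libraries SNAI1 was below all controls, and the second control library was the highest of the 6. The log2 fold change was -0.17 (SE 0.135, 95% interval -0.49 to 0.14, limma adjusted p = 0.984), and it was -0.069 without that control library.

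SNAI2, or Slug, lies at chr8:49830157-49834299 on the minus strand and is a factor of basal and mesenchymal breast cells. It stood at 7.28, 7.62 and 6.26 TPM in the shCTL libraries and at 7.81, 8.86 and 6.36 TPM in shRor1. The lowest value of each group was again that of the third library, and the groups overlapped. The log2 fold change of SNAI2 was 0.10 (SE 0.142, 95% interval -0.23 to 0.43, limma adjusted p = 0.984), with a value of 0.004 when the second shRor1 library was left out.

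TWIST1, a basic helix-loop-helix factor, is annotated at chr7:19060614-19157259 on the minus strand and was listed at 0 TPM in each of the 6 libraries. A value listed at 0 in a table of TPM with 2 decimals does not show how many reads would have been needed to see the gene. Summed over the 5 transcription factors, the level was 45.1 ± 2.16 TPM in shCTL and 47.0 ± 1.19 TPM in shRor1 (SD, n = 3). ZEB1 made up 54.8 ± 1.37% of that sum in shCTL and 55.5 ± 1.69% in shRor1. The ratio of ZEB1 to ZEB2 was 2.75 ± 0.251 and 2.74 ± 0.0904, and that of SNAI2 to SNAI1 was 1.65 ± 0.201 and 2.09 ± 0.438, with overlapping values in both cases.

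**Figure D2:**
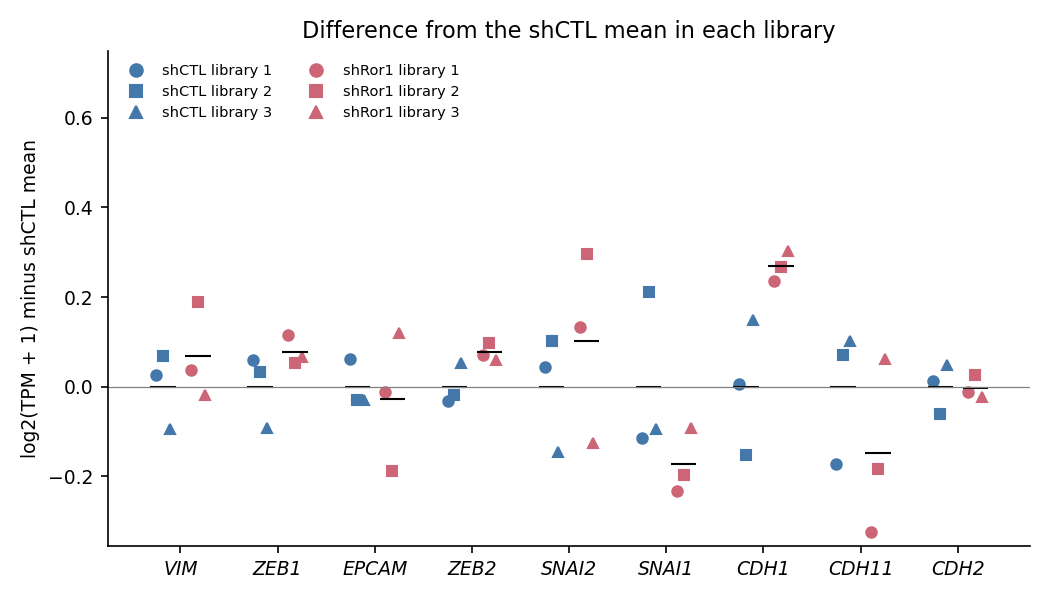
Difference of log2(TPM + 1) from the shCTL mean for each library and gene, with shCTL in blue, shRor1 in red and black bars at the group means. CDH1 and ZEB2 are the tested genes whose shRor1 points all lie above the shCTL points. For CDH1 and SNAI1, the shCTL points span more than the difference between the group means.

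CDH1 encodes E-cadherin, the adhesion molecule of epithelial junctions. Its level was 1.01, 0.8 and 1.22 TPM in shCTL and 1.36, 1.41 and 1.47 TPM in shRor1. The 3 shRor1 values were above the 3 controls without overlap, and the shCTL values were the more spread, with an SD of 0.21 against 0.0551 TPM. The means were 39.9% apart, and the log2 fold change was 0.27 (SE 0.136, 95% interval -0.05 to 0.59, unadjusted p = 0.085, limma adjusted p = 0.984). The exact two-sided permutation test gave p = 0.1, the smallest possible. CDH1 lay at the edge of the filter, with 5 of 6 libraries at 1 TPM or more. Its fold change ranged from 0.192 to 0.464 under the 12 alternatives, with limma adjusted p-values from 0.543 to 1.0. Because the groups did not overlap, only the 2 scalings could have turned its sign. The fold change was 0.226 with median ratio scaling and 0.21 with quantile normalization. The unadjusted p of CDH1 went below 0.05 only in the limma fit without a mean-variance trend, where it was 0.0348.

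CDH2, or N-cadherin, a cadherin of neural and mesenchymal cells, was at 0.2, 0.14 and 0.23 TPM in the shCTL libraries and at 0.18, 0.21 and 0.17 TPM in shRor1. No library reached 1 TPM, the groups overlapped and CDH2 was not tested by limma in the filtered table. CDH11, a type II cadherin of osteoblasts and mesenchymal cells, was at 0.2, 0.42 and 0.45 TPM in the shCTL libraries and at 0.08, 0.19 and 0.41 TPM in shRor1. In 2 of 3 shRor1 libraries CDH11 lay below all controls (exact two-sided permutation p = 0.2), and the third was within the shCTL range. No counting error was worked out for values this low.

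The epithelial cadherin and the 2 mesenchymal cadherins were minor among the 19 cadherin genes counted here, which were classical and type II cadherins and CDH13. Genes of desmosomes such as DSG2 (61.19 to 73.77 TPM) were left out. Over the 19 genes, the summed level was 59.6, 53.1 and 76.3 TPM in shCTL and 66.3, 49.3 and 63.2 TPM in shRor1. CDH1, CDH2 and CDH11 together made up 2.37%, 2.56% and 2.49% of it in shCTL and 2.44%, 3.67% and 3.25% in shRor1. CDH1 alone took 1.7%, 1.51% and 1.6% in shCTL and 2.05%, 2.86% and 2.33% in shRor1, without overlap. These shares rest on the same CDH1 values as given above and are not a separate observation. CDH4 (R-cadherin), CDH24, CDH18 and CDH12 held 87.0 ± 2.06% in shCTL and 86.4 ± 2.81% in shRor1. CDH4 was the highest, at 28.04, 24.05 and 32.4 TPM in shCTL and 30.8, 19.86 and 24.58 TPM in shRor1, with a log2 fold change of -0.17 (SE 0.17, limma adjusted p = 0.984).

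**Figure D3:**
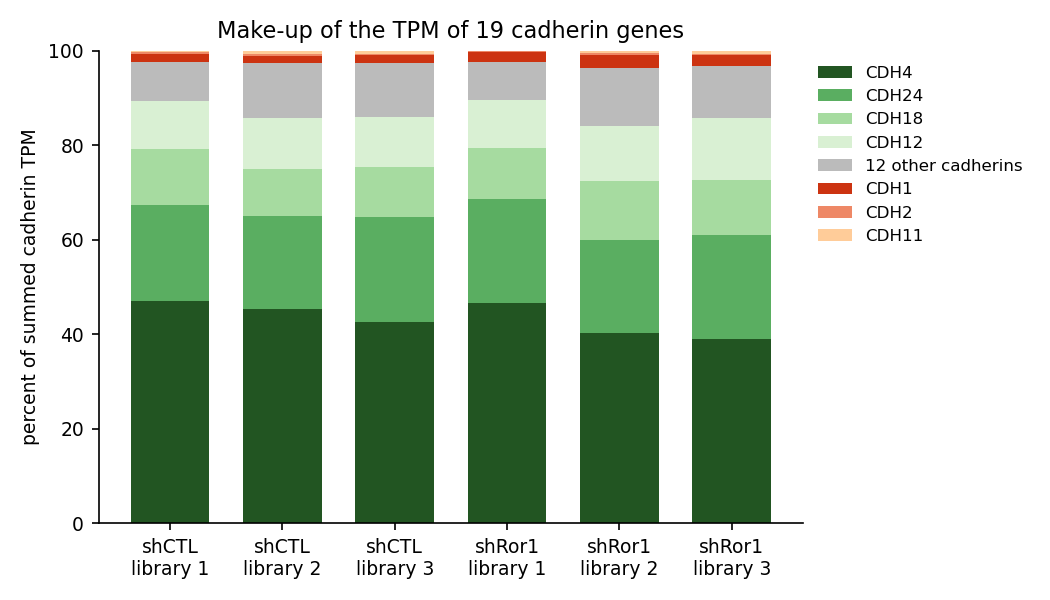
Share of each cadherin gene in the summed TPM of 19 cadherins, 1 bar per library, in percent. CDH4, CDH24, CDH18 and CDH12 in green fill 84.0% to 89.5% of each bar, and CDH1, CDH2 and CDH11 in red and orange fill 2.37% to 3.67%.

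EPCAM, an adhesion molecule of epithelial and carcinoma cells, was measured at 15.14, 14.15 and 14.15 TPM in the shCTL libraries and at 14.34, 12.58 and 15.8 TPM in shRor1. The lowest and the highest of the 6 values were both shRor1 libraries. The log2 fold change was -0.03 (SE 0.107, 95% interval -0.28 to 0.22, limma adjusted p = 0.987). EPCAM thus stood above ZEB2, SNAI2, SNAI1 and CDH1 in every library. In the same cells the keratin gene KRT8 ranged from 403.57 to 594.55 TPM, under the lowest VIM value of 2398.72 TPM. Per unit of CDH1, VIM stood at 2583, 3360 and 1966 in shCTL and at 1933, 2071 and 1719 in shRor1, ranges that overlapped.

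The antisense genes at these loci were listed separately. ZEB1-AS1, which overlaps the start of ZEB1, was at 5.52, 4.91 and 7.15 TPM in the shCTL libraries and at 6.42, 6.66 and 8.44 TPM in shRor1. VIM-AS1 was at 5.42, 4.14 and 5.0 TPM and at 4.48, 4.51 and 5.89 TPM. Both overlapped between groups. The kit marks strand but the strand setting of the counting was not given in the sources used here, so reads of a gene and of its antisense partner cannot be told apart here.

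The other genes of the EMT programme were described as lists, by the count past an unadjusted p of 0.05 and the median log2 fold change, beside 2.31% higher and 0.544% lower and a median of 0.054 over all tested genes. Of 16 other EMT transcription factors, 10 were tested, 0 passed and the median was 0.05. TCF3, an E protein that partners TWIST factors, was the highest, with 100.08, 94.47 and 105.49 TPM in shCTL and 102.08, 96.8 and 93.54 TPM in shRor1. SOX4, an SRY-related factor active in EMT, had the largest difference, at 3.01, 3.86 and 3.58 TPM in shCTL against 3.1, 6.26 and 7.2 TPM in shRor1 (log2 fold change 0.48, SE 0.255, limma adjusted p = 0.984). TWIST2 and GSC, like TWIST1, were listed at 0 in all 6 libraries. PRRX1, under the filter at 0.26 to 0.5 TPM, had shRor1 values of 0.49, 0.49 and 0.5 TPM, above its 3 controls. CDH6, CDH19 and RAB25 of other lists, under the filter at no more than 0.22 TPM, were also higher without overlap. No listed gene under the filter was lower without overlap. These genes were not tested, and the share over all genes under the filter was not worked out.

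Of 15 epithelial transcription and splicing factors, 8 were tested, 0 passed and the median was 0.03. KLF4, a factor that sustains epithelial identity, was the highest at 18.18 to 23.14 TPM, and ELF3, an epithelial ETS factor, differed most (log2 fold change 0.40, SE 0.469, limma adjusted p = 0.984), at 0.73, 0.81 and 2.63 TPM in shCTL and 0.88, 1.29 and 5.02 TPM in shRor1. The third library was the highest in each group. Of 16 other cadherins, 6 were tested, 0 passed and the median was -0.01.

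Catenins and cadherin partners were the one list with calls at the unadjusted level, 2 higher and 0 lower of 9 tested, with a median of 0.11. AFDN, which encodes afadin and ties nectins to actin, was at 47.56, 43.27 and 51.13 TPM in the shCTL libraries and at 50.87, 57.87 and 62.19 TPM in shRor1 (log2 fold change 0.26, SE 0.101, unadjusted p = 0.0338, limma adjusted p = 0.984). NECTIN3, an adhesion molecule bound by afadin, was at 23.93, 25.24 and 24.34 TPM in the shCTL libraries and at 26.06, 30.13 and 31.11 TPM in shRor1, without overlap (log2 fold change 0.24, SE 0.092, unadjusted p = 0.0347, limma adjusted p = 0.984). AFDN overlapped between groups in 1 shRor1 library, and neither gene passed after adjustment. The α-catenin gene CTNNA1 was the highest of the list, at 267.01 to 318.93 TPM, and JUP, or plakoglobin, had its largest fold change (0.40, SE 0.568).

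Of 26 epithelial junction and surface genes, 16 were tested, 0 passed and the median was 0.09. MARVELD2, or tricellulin, a tight junction protein, was the gene without overlap, at 2.41, 2.2 and 2.02 TPM in shCTL and 2.42, 2.44 and 2.53 TPM in shRor1 (log2 fold change 0.11, limma adjusted p = 0.984). SPINT2, a protease inhibitor, was the highest at 223.04 to 322.14 TPM, and MAL2, a protein of apical transport, had the largest fold change (-0.17, SE 0.132, limma adjusted p = 0.984).

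Of 16 mesenchymal genes, 13 were tested, 0 passed and the median was 0.04. NT5E, the ectonucleotidase CD73, was the highest at 338.7 to 493.53 TPM, and FN1, or fibronectin, had the largest fold change (0.60, SE 0.547, limma adjusted p = 0.984). Among the other intermediate filament genes, 9 of 13 were tested, 0 passed and the median was 0.09, with the lamin gene LMNA the highest at 340.95 to 422.61 TPM, and NES, or nestin, the most different (0.24, SE 0.264). Among 20 corepressors and turnover factors of the EMT regulators, 19 were tested, 0 passed, and the median was 0.02. The maintenance methyltransferase DNMT1 was the highest there at 243.82 to 286.97 TPM, and the kinase gene PAK1 had the largest fold change, 0.11 (SE 0.108).

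**Figure D4:**
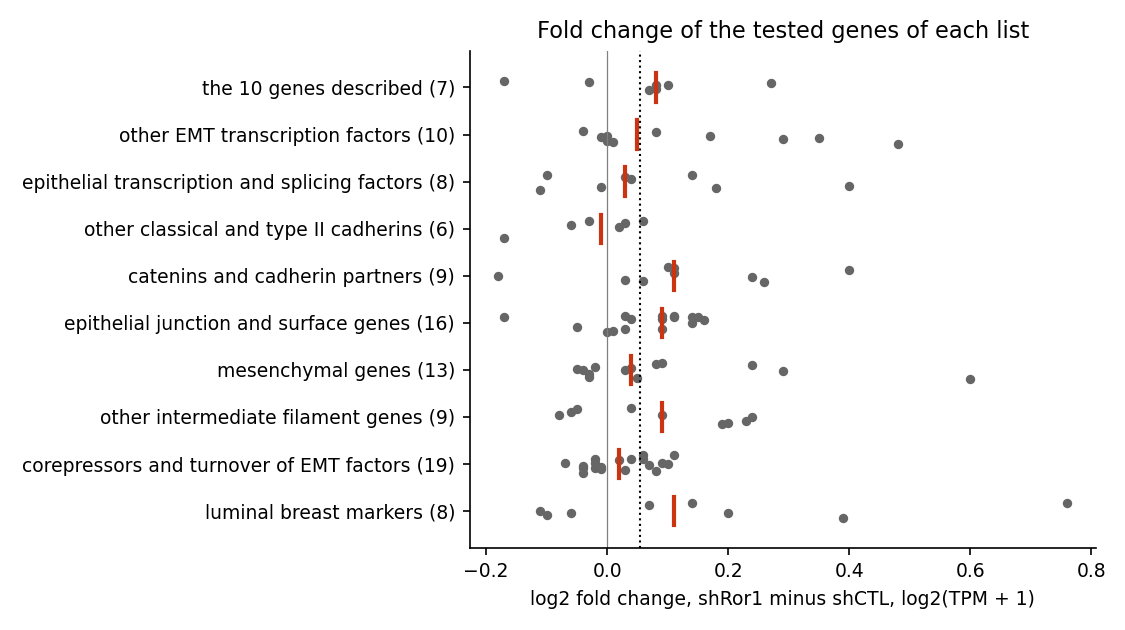
Log2 fold change (shRor1 minus shCTL, on log2(TPM + 1)) of each tested gene, 1 grey point per gene, by list, with the number tested in brackets, red bars at list medians and a dotted line at the median of all tested genes, 0.054. The list medians lie between -0.01 and 0.11, and the widest points are FN1 at 0.60 and TFF3 at 0.76.

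The microRNA loci were at or near 0: 5 of the 6 entries found for miR-200 and miR-205 were listed at 0 in all libraries, and MIR205HG ranged from 0.52 to 1.48 TPM. These libraries do not capture mature microRNAs, so the entries say nothing of the sequences shown above. Of the genes taken as mesenchymal-type markers of the line, CD44 was at 359.19 to 534.17 TPM and AXL at 346.56 to 437.58 TPM. MSN was at 365.07 to 409.56 TPM, and VIM, ZEB1 and SNAI2 are given above. Other mesenchymal genes stayed under the filter, among them CDH2, CDH11 and TWIST1. In the mesenchymal list these were POSTN (0.0 to 0.02 TPM), THY1 (0.0 to 0.09 TPM) and DDR2 (0.48 to 0.67 TPM). Of the luminal breast markers, 8 of 10 were tested with 0 passing and a median of 0.11. The keratin genes KRT18 and KRT19 were at 456.78 to 502.91 and 84.77 to 141.5 TPM. FOXA1 was at 3.72 to 5.45 TPM and GATA3 at 3.83 to 4.69 TPM, whereas ESR1 and PGR stayed under the filter. TFF3, a secreted trefoil peptide, had the largest fold change (0.76, SE 0.553, limma adjusted p = 0.984). Markers of other cell types were low apart from CD68: of 8 leukocyte markers, only CD68, which many cancer lines express, was tested (137.79 to 238.91 TPM), PTPRC was at 0.07 to 0.39 TPM and MS4A1 was listed at 0 in all libraries. The 5 endothelial markers found summed to 0.96 to 2.33 TPM in shCTL and 0.85 to 2.35 TPM in shRor1.

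A second pattern ran across the libraries within both groups and was noticed after the values were seen. FN1 was at 15.59, 20.84 and 43.88 TPM in the shCTL libraries and at 17.02, 39.34 and 76.86 TPM in shRor1. S100A4, a calcium-binding protein of motile cells, was at 2.42, 3.63 and 7.97 TPM and at 2.01, 5.31 and 12.74 TPM. JUP was at 5.85, 8.55 and 18.03 TPM and at 5.66, 12.96 and 29.72 TPM. The claudin gene CLDN7 was at 6.64, 6.67 and 14.73 TPM and at 6.66, 6.57 and 18.07 TPM. In each of these the third library of a group was the highest, for mesenchymal genes (FN1 and S100A4) and epithelial genes (JUP and CLDN7) alike. VIM, ZEB1, ZEB2 and SNAI1 moved by less: over all 6 libraries VIM ranged from 2398.72 to 2919.77 TPM and ZEB1 from 23.11 to 26.81 TPM. The part of these libraries in the group differences was not tested. Without the third library of each group, the log2 fold change of CDH1 was 0.326 (limma unadjusted p = 0.0874). That of ZEB2 was 0.111 (limma unadjusted p = 0.368). Neither sign could turn there, because all shRor1 values of these genes lay above all controls.

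**Figure D5:**
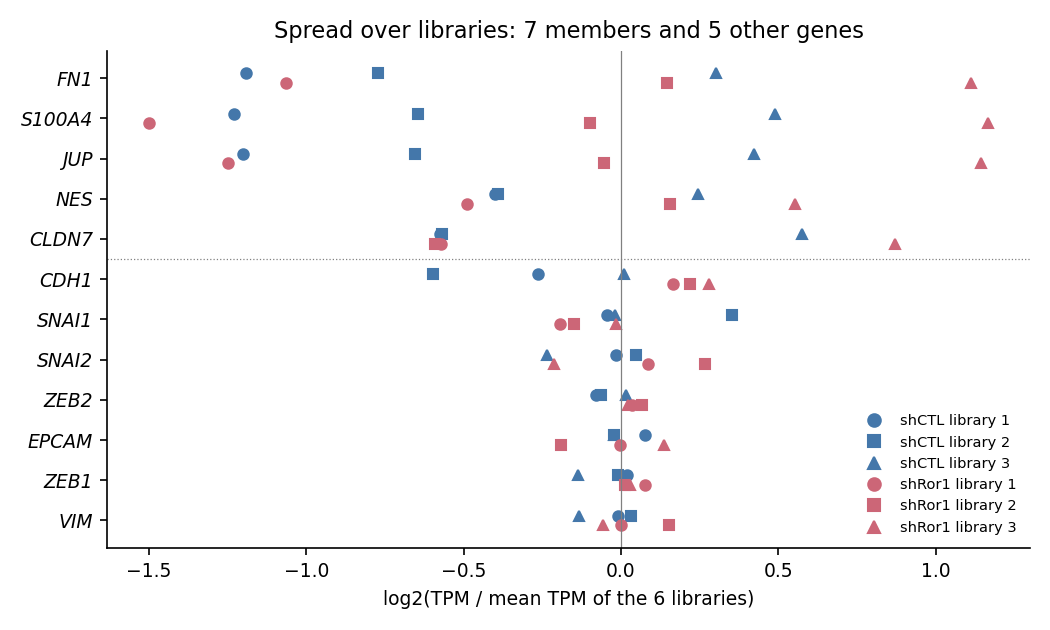
Log2 ratio of each library's TPM to the mean of the 6 libraries for the 7 tested EMT genes (below the dotted line) and 5 genes chosen for their spread after the values were seen (above it), with shCTL in blue and shRor1 in red. FN1, S100A4 and JUP span the widest range with the third library (triangle) of each group at the top, and VIM, ZEB1 and ZEB2 stay close to 0.

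Deviations from the group means showed which genes went together from library to library, a description over 6 libraries that share their cell line and processing. VIM and SNAI2 moved together (r = 0.94), with the third library of each group low and the second high. ZEB1 and ZEB2 moved in opposite directions (r = -0.92), as did SNAI2 and EPCAM (r = -0.74) and CDH1 and ZEB1 (r = -0.73). These pairs had the largest absolute r among the tested EMT genes. CDH1 moved together with ZEB2 (r = 0.66) but against SNAI1 (r = -0.7) and SNAI2 (r = -0.6). Among 10931 genes with a mean of at least 5 TPM, the nearest to VIM were CCDC138 (r = 0.9998) and NUCKS1 (r = 0.9996), and those nearest to SNAI2 were LTV1 (r = 1.0 after rounding) and UTP11 (r = 0.9998). ZEB1 was nearest to B9D2 (r = 0.9911) and S100A11 (r = 0.9906), ZEB2 to RBISP1 (r = 0.9882) and SFXN5 (r = 0.9827), and EPCAM to ZNF584-DT (r = 0.998) and MED9 (r = 0.9962). With so few libraries such values are common, since 466 genes passed r = 0.9 with VIM, 478 with SNAI2, 148 with EPCAM, 88 with ZEB1 and 54 with ZEB2.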

How the data were processed

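RNA-Seq libraries of MDA-MB231 cells (3 shCTL, 3 shRor1) were analysed from 1 table. Per the labels and methods, reads were processed with CASAVA 1.8.2 and FastQC 0.10.0, mapped to GRCh37 with STAR (Ensembl 73) and quantified with RSEM 1.2.5. The values deposited by the authors are TPM per gene, although the table is named for expected counts, and each column sums to 1000000 within rounding. TPM is relative, so a large gain in one gene pulls down the rest, and depth is lost. The labels give polyA RNA, the extraction text total RNA. Column headers give only the group; that of the controls also holds the word DMSO, which no label explains.

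Symbols were matched by Ensembl identifier (55022 of 57445). Genes reaching 1 TPM in 3 or more libraries were fitted with limma 3.58.1 (R 4.3.3) with a mean-variance trend on log2(TPM + 1), with condition as the only term, as planned for TPM. The fit was tested on simulated data. Single genes were also compared by exact two-sided permutation tests (SciPy 1.17.1). Motifs were searched in GENCODE 44 annotation lifted to GRCh37. Alternatives were another pseudocount, 2 filters, 2 scalings, no trend and leaving out each library; removing the third library of each group was added after the data were seen.

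The members and lists were chosen with earlier results of these data known. Named genes were all 10 members, ROR1, and from each list those with an unadjusted p below 0.05, the highest mean, the largest tested fold change and, where at most 3, those without overlap. Levels of further cell type markers were given beside these. The nearest 2 genes were named for members with a mean of at least 5 TPM. Of the listed genes, 4 (NEFL, USP27X, MIR205, PECAM1) were not analysed here.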

Additional observations from a re-analysis of the deposited data

How the results depend on the processing

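No EMT gene passed an adjusted p of 0.05 under any alternative run. The number of all genes that did was 0, except that 1 gene (RPL39P3) passed without the third shRor1 library, a range of 0 to 1 when single libraries were left out. The number at an unadjusted p below 0.05 was 472. It was 227 with a mean of at least 5 TPM (11145 genes tested) and 1363 without a filter (39104 tested), fewer or more genes by construction. Leaving out single libraries gave 275 (without the second shCTL library) to 1692 (without the first shRor1 library); the cause was not tested. Of these calls 80.9% were higher in shRor1, against 53.9% after quantile normalization and 50.3% after median ratio scaling, so the balance of higher over lower genes depends on the scaling. Small fold changes of EMT genes turned sign: VIM was -0.012 with median ratio scaling, ZEB2 was -0.003 with quantile normalization, and EPCAM was 0.003 and 0.053 without the first shCTL and the second shRor1 library, in a range of -0.1 to 0.053 over single libraries left out. CDH1, SNAI1, SNAI2 and ZEB1 did not turn. No paired analysis was possible because no column header holds a replicate number. The table gives no depth. The paper lists mapped reads per sample, but the columns name only the group. The precision of the genes under 1 TPM (CDH2, CDH11, TWIST1) was not worked out.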
